A study of Mus musculus with 6 samples.

Results

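The 63 genes described here encode the ligands and receptors by which growing axons are steered: semaphorins (classes 3 to 7), plexins, neuropilins, ephrins, Eph receptors, netrins, Slits, Robos and Unc5 receptors. They were picked by gene symbol alone from the 12968 genes of a table of ribosome-bound RNA, and all 63 passed the filter on low values and were tested. By role, 34 are ligands and 29 are receptors. The RNA came from the middle section of the left brain hemisphere of 6 mice and was pulled down by RiboTag, an allele that tags a ribosomal protein in cells with Cre recombinase. In 3 mice the middle cerebral artery had been occluded for 1 h (MCAO), a model of stroke, and 3 control mice had no occlusion. The time of killing is given as 3 days. From each animal the RNA was precipitated 2 times and pooled, and each library is 1 animal; its number here is only a name. No sham operation, Cre driver, strain, sex or age is given in the labels used here. The series title speaks of the astrocyte transcriptome.

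Axon guidance cues act at short or long range on receptors of the growth cone, where they act on the cytoskeleton and so turn, stall or attract the axon. In the adult brain many stay in use at synapses, in blood vessels and in glia, and several are known as inhibitors of axon growth in injured tissue. Neurons, astrocytes and oligodendrocytes each make some of them.

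Values are scaled read counts: reads per gene divided by 1 factor per library. MCAO 2 was the shallowest library, with 882263 recovered reads, and control 1 the deepest, with 9519548, so that the median guidance gene rested on 22 and 368 reads. In MCAO 2, 11 of the 63 genes had under 10 reads. Tests are limma's on log2(scaled read count + 1), adjusted over all 12549 genes tested, with 0.05 as the threshold of the adjusted p below which a change is called. Of the marker lists of cell types, all 10 astrocyte genes were in the table, and so were all 12 neuron, 9 oligodendrocyte and 10 microglia genes. Of 5 lymphocyte genes 0 were in the table.

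No guidance gene was called after MCAO. Of 12549 genes tested, limma called 2.30% as higher and 0.789% as lower, 3.08% in all, and 0 of the 63 guidance genes in either direction. At an unadjusted p under 0.05 there were 12 lower and 1 higher, or 19.0% and 1.59% of the 63, against 9.16% and 10.1% of all tested genes. On recovered reads edgeR called 2 of the 63, Plxnb3 as higher and Robo2 as lower, and DESeq2 called the same 2 genes. The share of all tested genes called by edgeR was 3.06% higher and 1.08% lower, and by DESeq2 3.09% and 1.28%. The values of most guidance genes were nonetheless a little lower after MCAO. Log2 changes were negative in 51 of 63 genes (81.0%), against 51.3% of all tested genes, and their median was -0.23 against -0.01. The largest sizes were small, from -0.98 in Sema3f to 0.88 in Plxnb3, and none reached 1. All 3 MCAO animals lay below all 3 controls in 14 of the 63 genes (22.2%), against 12.5% of all tested genes, and above them in 1 (1.59%), against 12.4%. In such bulk RNA a change in the number of cells of a type cannot be told from a change in RNA per cell. None of the 6 libraries holds RNA that was not precipitated. Neuron markers were read in the precipitates too, Camk2a at a control mean of 8422 scaled reads and Snap25 at 3422. Which cells the guidance reads came from was not tested.

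MCAO 2, the shallowest library, was the lowest of the 6 for 35 of the 63 genes (55.6%), against 24.7% of all tested genes. Against the control mean, the median guidance gene was at -0.10 in MCAO 1, -0.39 in MCAO 2 and -0.17 in MCAO 3 on the log2 scale, where the medians of all tested genes were 0.00, -0.01 and 0.00. Without MCAO 2 the median of the 63 genes was -0.14, with 48 below 0, where all tested genes had a median of -0.0043 and 50.4% below 0. In 40 genes the log2 change was negative with all libraries and with each of the 6 left out. In 6 genes it was positive in all of these. These fits share libraries, so their signs are not independent, and no such count was made over all tested genes. The summed scaled reads of all 63 genes stood at 9727, 10399 and 10201 scaled reads in controls 1, 2 and 3 and at 9161, 7658 and 8762 in MCAO 1, 2 and 3. All 3 MCAO sums lay below all 3 control sums. These sums carry no test.

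**Figure D1:**
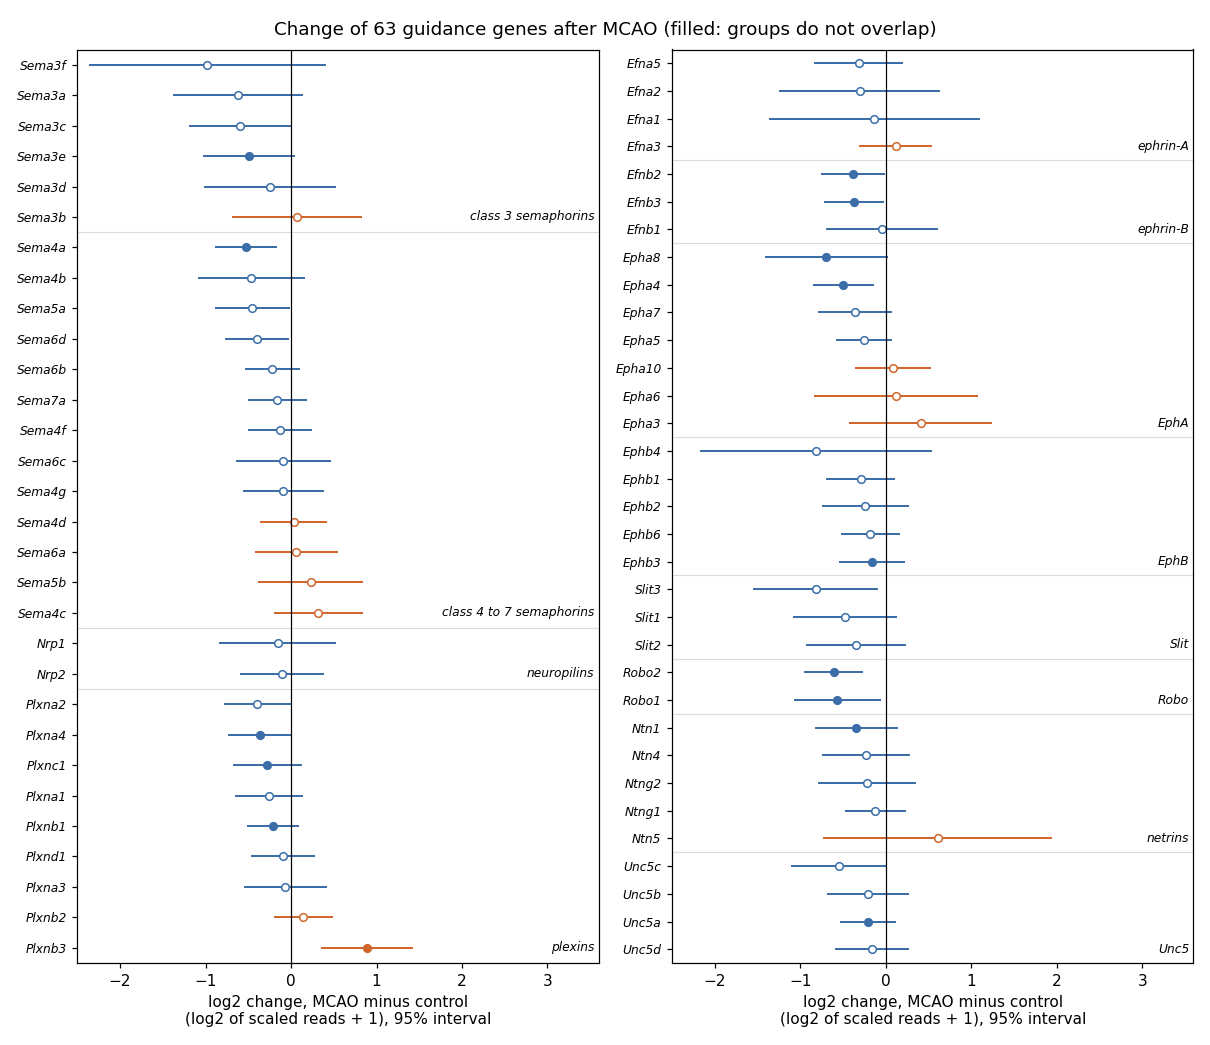
Log2 change (MCAO minus control, log2 of scaled reads plus 1; points) with limma's 95% interval (lines) for each of the 63 genes, ordered within families; blue is below 0, orange above 0, and filled points mark genes whose groups do not overlap. Most points lie left of 0, and Plxnb3 is the 1 filled point to the right.

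Slit proteins are secreted cues that repel axons through Robo receptors. Both measured Robo genes lay lower in every MCAO animal than in any control, as did 12.5% of all tested genes. Robo2 (chromosome 16, 73891976 to 75447443), the gene with the smallest p of the 63, was at 248, 220.0 and 216 scaled reads in controls 1, 2 and 3 and at 164, 143 and 139.9 in MCAO 1, 2 and 3. The MCAO values were clear of the controls, with a gap wider than the range within either group. From 228 ± 17.4 scaled reads to 149 ± 12.8 (SD, n = 3 each) the log2 change was -0.61 (SE 0.16, 95% interval -0.95 to -0.27), just outside the threshold with limma (adjusted p = 0.0513). It was called under 6 of 19 alternatives, edgeR (adjusted p = 0.0407) and DESeq2 (0.0466) among them, and the adjusted p ranged from 0.00471 to 0.608. In the 3 limma fits with a pseudocount of 5, with a mean of at least 50 and with robust moderation, which called Robo2 as their 1 guidance gene, 0.893%, 1.09% and 0.924% of all genes were called as lower and 2.56%, 2.16% and 2.58% as higher. The highest adjusted p came with the trend on gene span removed, where the log2 change was -0.19. Robo1 (chromosome 16, 72027518 to 73047491), its close relative, was at 120.3, 92.2 and 99.6 scaled reads in controls 1, 2 and 3 and at 83, 49.8 and 81.3 in MCAO 1, 2 and 3. MCAO 2 was far below the other MCAO animals, and control 2 was within 9.29 scaled reads of MCAO 1. Its log2 change was -0.57 (SE 0.23, limma adjusted p = 0.207), -0.33 without MCAO 2 and -0.19 with the span trend removed.

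To place Robo2 on the genome, the 100 bases that precede its annotated start and lie outside the gene are given here, from RefSeq on GRCm38.p6 (chr16:75447444-75447543, minus strand, 5′ to 3′). They hold no GC box, the motif GGGCGG bound by Sp factors, on either strand, and stand in lower case throughout.
Robo2: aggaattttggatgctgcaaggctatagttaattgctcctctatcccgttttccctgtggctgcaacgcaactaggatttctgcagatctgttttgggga

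In each of the 3 Slit genes MCAO 2 was the lowest of the 6 libraries. Slit1 was at 136, 170.3 and 161 scaled reads in controls 1, 2 and 3 and at 146, 62.2 and 151 in MCAO 1, 2 and 3. MCAO 1 and MCAO 3 stood among the controls, and MCAO 2 alone was low. Slit2 was at 73.7, 85.1 and 78.5 scaled reads in controls 1, 2 and 3 and at 88.2, 40.4 and 65.3 in MCAO 1, 2 and 3, with MCAO 1 the highest of all 6 animals. Slit3 (chromosome 11, 35121456 to 35708507) was at 40.6, 67.4 and 60.4 scaled reads in controls 1, 2 and 3 and at 41.8, 18.7 and 36.6 in MCAO 1, 2 and 3, and MCAO 1 overlapped control 1. The log2 changes were -0.47, -0.35 and -0.82 in the same order (SE 0.28, 0.27 and 0.33; limma adjusted p = 0.377, 0.499 and 0.2). Without MCAO 2 they were -0.06, -0.06 and -0.48, and without both MCAO 2 and control 2 they were 0.01, -0.0024 and -0.33. In MCAO 2 Slit3 rested on 6 reads, Slit2 on 13 and Slit1 on 20.

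**Figure D2:**
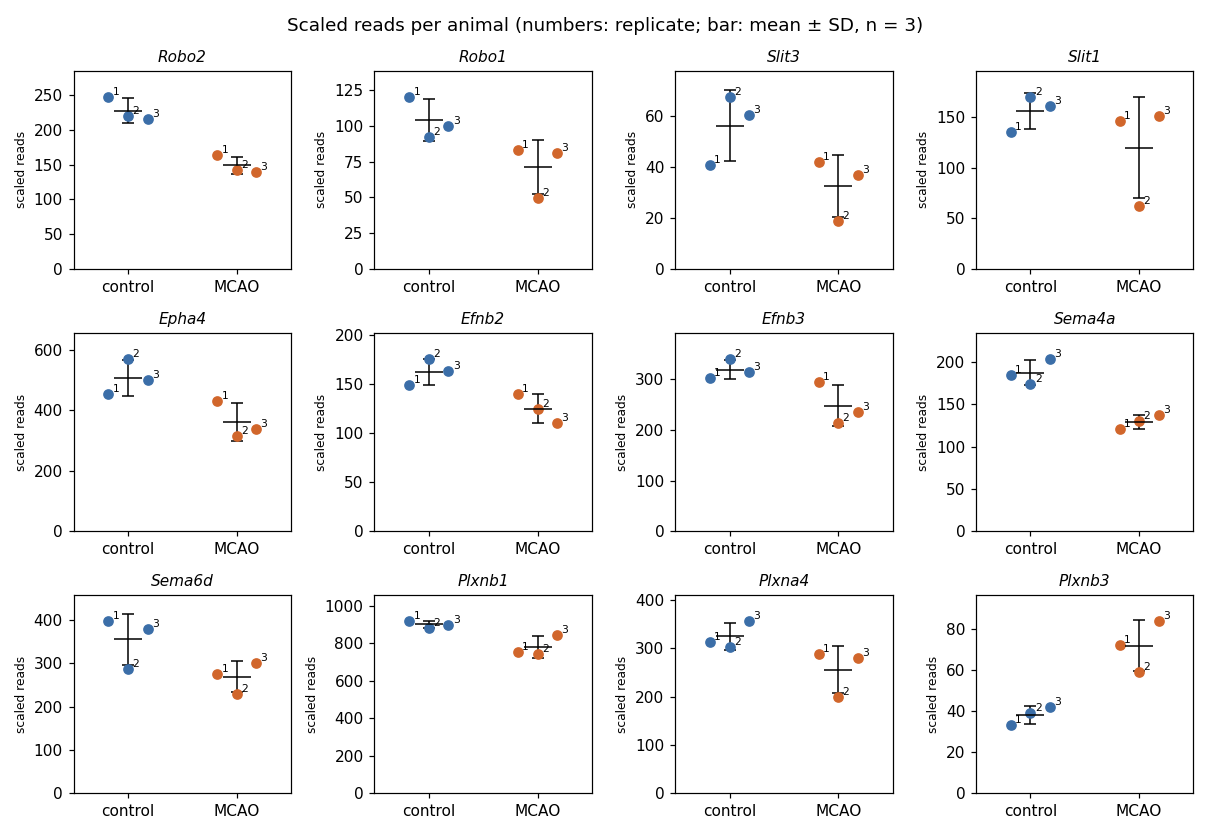
Scaled reads (y axis, from 0) of 12 guidance genes in each control (blue) and MCAO (orange) animal, with the replicate number beside each point and bars for the mean and SD of 3 animals. Robo2, Sema4a and Plxnb3 part the groups with a clear gap, whereas Slit1 differs by MCAO 2 alone.

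Ephrins are ligands held at the cell surface, A types by a lipid anchor and B types by a membrane span. They bind Eph receptor tyrosine kinases on the next cell, and both partners can signal. Epha4 (chromosome 1, 77367182 to 77515107), a receptor that binds ephrins of both types and is known to hold back axon growth after injury, was at 452, 569 and 499 scaled reads in controls 1, 2 and 3 and at 431, 314 and 336 in MCAO 1, 2 and 3. The groups did not overlap, although MCAO 1 came within 21.8 scaled reads of control 1. From 507 ± 58.9 scaled reads to 360.4 ± 61.9 the log2 change was -0.50 (SE 0.16, 95% interval -0.84 to -0.16, limma adjusted p = 0.11), and -0.32 with the span trend removed or without control 2 and MCAO 2. No alternative called it.

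The bases before the annotated span of Epha4 are shown because it was the Eph receptor with the smallest p and its promoter does hold a GC box, in capitals (chr1:77515108-77515338, minus strand, 5′ to 3′).
Epha4: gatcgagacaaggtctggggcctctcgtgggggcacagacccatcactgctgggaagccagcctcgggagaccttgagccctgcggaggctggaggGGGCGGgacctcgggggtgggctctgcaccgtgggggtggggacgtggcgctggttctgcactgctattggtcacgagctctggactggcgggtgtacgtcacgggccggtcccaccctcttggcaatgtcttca

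Efnb2 and Efnb3, ephrin-B ligands of Epha4, lay below the controls in every MCAO animal, as did 12.5% of all tested genes. Efnb3 was at 302, 341 and 315 scaled reads in controls 1, 2 and 3 and at 294, 215 and 236 in MCAO 1, 2 and 3. MCAO 1 stood just under the lowest control, and the other MCAO animals well below. Efnb2, which is also an arterial marker, was at 149, 176 and 163 scaled reads in controls 1, 2 and 3 and at 139, 124 and 109.9 in MCAO 1, 2 and 3, again without overlap. Their log2 changes were -0.37 (SE 0.16) and -0.38 (SE 0.17), with limma adjusted p of 0.216 and 0.24. Without control 2 and MCAO 2, Efnb3 was at -0.23. Efnb1, the third member, was at 34.3 ± 7.45 in controls and 32.9 ± 3.87 after MCAO (-0.04, SE 0.30).

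Of 4 ephrin-A genes 3 had negative log2 changes, none at an unadjusted p under 0.05. Efna5, a guidance cue of retinal and cortical maps, was at 66.2 ± 9.86 in controls and 53 ± 8.47 after MCAO, and Efna3, the member with the most reads, at 102 ± 19.1 in controls and 109.8 ± 9.87 after MCAO. Efna2 (-0.31, SE 0.43) and Efna1 (-0.14, SE 0.57) had low means and wide spreads. Efna1 in control 3, at 24.1, was over the range of 6.91 to 15.6 in the other libraries.

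Among 7 EphA genes 4 log2 changes were negative, and with the span trend removed 3 were. Epha5, the member with the most reads, was at 719, 869 and 730.4 scaled reads in controls 1, 2 and 3 and at 628, 734 and 583 in MCAO 1, 2 and 3 (-0.25, SE 0.15, limma adjusted p = 0.373). MCAO 2 stood above both control 1 and control 3, so that the groups overlapped. Epha7 was at 270.3 ± 67 in controls and 208 ± 34.7 after MCAO, with control 2 (339) far over control 1 (205). Epha8, at 30.8, 31.9 and 36.2 scaled reads in controls 1, 2 and 3 and at 16.5, 24.9 and 19.3 in MCAO 1, 2 and 3, did not overlap but rested on 8 reads in MCAO 2 (-0.69, SE 0.33, limma adjusted p = 0.265). Epha3, Epha6 and Epha10 had positive log2 changes of 0.41, 0.12 and 0.09, with SEs of 0.38, 0.44 and 0.20.

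All 5 EphB genes had negative log2 changes, none past an unadjusted p under 0.05. Ephb6, a receptor without an active kinase, had the most reads, at 280.0, 360.1 and 308 scaled reads in controls 1, 2 and 3 and at 261, 311 and 262 in MCAO 1, 2 and 3, and MCAO 2 was just above control 3. Ephb1 went from 186 ± 22 scaled reads to 152 ± 27.5 (-0.30, SE 0.18). Ephb3 was at 112, 121 and 115 scaled reads in controls 1, 2 and 3 and at 98.2, 106 and 105 in MCAO 1, 2 and 3. Its groups did not overlap, yet the difference was small (-0.17, SE 0.17, limma adjusted p = 0.64). Ephb4, the venous partner of Efnb2, was at 15, 16 and 21.1 scaled reads in controls 1, 2 and 3 and at 8.24, 3.11 and 28 in MCAO 1, 2 and 3. The value in MCAO 2 was 1 read, and MCAO 1 and MCAO 3 lay on either side of the controls. Its log2 change was -0.82 (SE 0.63), -0.15 without MCAO 2 and -1.56 without MCAO 3.

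**Figure D3:**
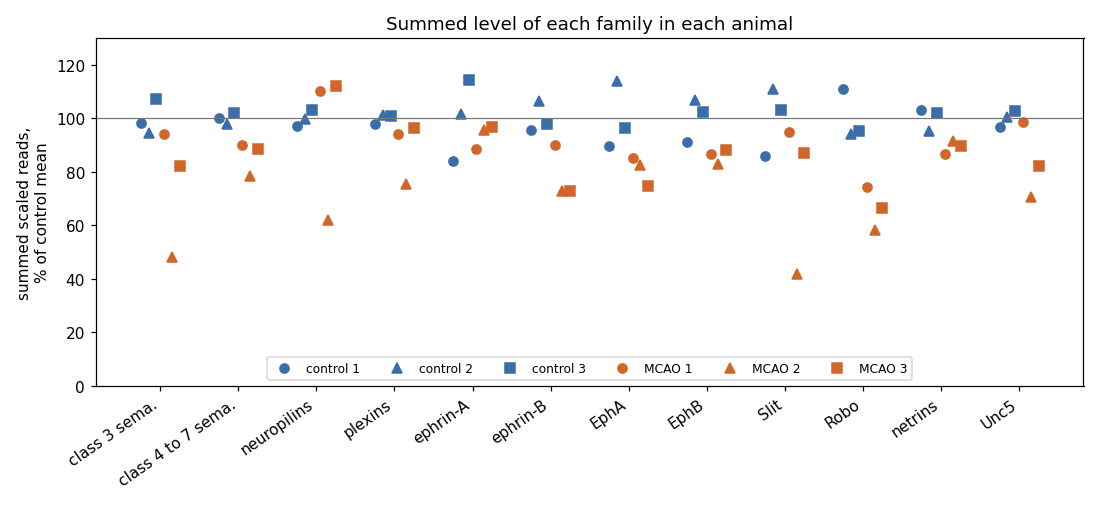
Summed scaled reads of each of 12 families in each animal, as percent of the mean of the 3 controls (y axis, from 0); blue marks controls, orange MCAO, and the symbol the replicate. Robo sums were at 58.1 to 74.3% after MCAO, and MCAO 2 (orange triangles) stands apart in class 3 semaphorins, neuropilins and Slits.

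Class 3 semaphorins are secreted repellents that act through neuropilins joined to A-type plexins. As a family they were lower in MCAO 2 than in any other library. Summed over the class they stood at 311, 299.8 and 339.5 scaled reads in controls 1, 2 and 3 and at 298, 152 and 259.8 in MCAO 1, 2 and 3. Sema3e, which binds plexin-D1 without a neuropilin and had the most reads, was at 117, 117 and 134 scaled reads in controls 1, 2 and 3 and at 106, 56 and 112 in MCAO 1, 2 and 3. The groups did not overlap, but MCAO 1 and MCAO 3 came close to the controls (-0.49, SE 0.25, limma adjusted p = 0.297), and without MCAO 2 the log2 change was -0.17. Sema3c was at 65, 55 and 70.9 scaled reads in controls 1, 2 and 3 and at 57.7, 31.1 and 40 in MCAO 1, 2 and 3 (-0.60, SE 0.27, limma adjusted p = 0.25; -0.39 without MCAO 2). Sema3a, the founding repellent of the class, was at 43.2, 46.1 and 36.2 scaled reads in controls 1, 2 and 3 and at 38.8, 15.6 and 31.3 in MCAO 1, 2 and 3, of which MCAO 2 rested on 5 reads (-0.62, SE 0.35; -0.25 without MCAO 2). Sema3f, at 41.4, 17.7 and 33.2 scaled reads in controls 1, 2 and 3 and at 29.4, 3.11 and 27.3 in MCAO 1, 2 and 3, had the most negative log2 change of the 63 genes, -0.98, with an SE of 0.64. MCAO 2 held 1 read of it, and without MCAO 2 the log2 change was -0.04. Sema3b (0.07) and Sema3d (-0.24) lay within 1 SE of 0. Without MCAO 2 the median of the 6 genes was -0.11 in place of -0.54.

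Neuropilins are the co-receptors for these ligands and, in vessels, for VEGF. Nrp2 was at 148, 186 and 157 scaled reads in controls 1, 2 and 3 and at 201, 103 and 167 in MCAO 1, 2 and 3, and MCAO 1 and MCAO 2 were the highest and lowest of all 6 animals. Its log2 change was -0.11 (SE 0.22) and turned to 0.17 without MCAO 2. Nrp1 was at 76.3, 44.3 and 81.5 scaled reads in controls 1, 2 and 3 and at 53.5, 40.4 and 91.2 in MCAO 1, 2 and 3, with control 2 lower than MCAO 1 and MCAO 3 the highest of all (-0.16, SE 0.31; 0.10 without MCAO 2).

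Semaphorins of classes 4 to 7 stay on the cell surface, and most bind plexins directly. Sema4a (chromosome 3, 88435959 to 88461182), known from immune cells and the retina, was the ligand with the smallest p. It was at 185, 174 and 204 scaled reads in controls 1, 2 and 3 and at 121, 131 and 137 in MCAO 1, 2 and 3. All 3 MCAO animals lay well under the lowest control. From 187 ± 15.1 scaled reads to 129 ± 8.36 the log2 change was -0.53 (SE 0.16, 95% interval -0.88 to -0.18, limma adjusted p = 0.0957). It ranged from -0.59 to -0.47 over all alternatives, with adjusted p from 0.03 to 0.256, and of these alternatives library weights called it. With those weights 3.47% of all tested genes were called as lower and 4.51% as higher.

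Its upstream bases at the most distal annotated start are given for the same reason as those of Epha4, with the GC box, here on the other strand, in capitals (chr3:88461183-88461432, minus strand, 5′ to 3′).
Sema4a: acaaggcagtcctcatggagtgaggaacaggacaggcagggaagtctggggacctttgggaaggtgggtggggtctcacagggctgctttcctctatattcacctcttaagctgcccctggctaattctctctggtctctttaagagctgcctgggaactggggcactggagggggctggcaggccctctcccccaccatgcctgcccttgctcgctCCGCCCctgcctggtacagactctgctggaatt

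The other class 4 genes had smaller log2 changes than Sema4a, and all had overlapping groups. Sema4d, which oligodendrocytes make and which acts through plexin-B1, was at 104 ± 3.81 in controls and 106 ± 7.92 after MCAO (0.03, SE 0.18, 95% interval -0.35 to 0.41). Sema4c was at 53.4 ± 9.5 in controls and 66.4 ± 8.64 after MCAO (0.32, SE 0.24), Sema4f at 184 ± 28.7 in controls and 167 ± 7.43 after MCAO (-0.13) and Sema4g at 83.1 ± 12.3 in controls and 78.2 ± 13 after MCAO (-0.09). Sema4b varied within the controls, at 120.3, 56.8 and 89 scaled reads in controls 1, 2 and 3 and at 51.2, 52.9 and 83.9 in MCAO 1, 2 and 3. Sema5a was at 180.2, 183 and 184 scaled reads in controls 1, 2 and 3 and at 181, 103 and 127 in MCAO 1, 2 and 3. Controls and MCAO 1 were nearly equal, and MCAO 2 and MCAO 3 were lower (-0.45, SE 0.20, limma adjusted p = 0.237; -0.27 without MCAO 2). Sema5b had 36.4 ± 8.67 in controls and 42.1 ± 3.61 after MCAO. In class 6, whose members bind A-type plexins, Sema6d was at 398, 287 and 380.3 scaled reads in controls 1, 2 and 3 and at 277, 230.2 and 300.4 in MCAO 1, 2 and 3. Control 2 lay below MCAO 3, so the groups overlapped (-0.39, SE 0.17, limma adjusted p = 0.221). Sema6b, with the most reads of these classes, was at 395 ± 40.8 in controls and 338 ± 23.7 after MCAO (-0.22, SE 0.15, limma adjusted p = 0.432), and Sema6a, found on oligodendrocytes as well as neurons, at 94.8 ± 19.8 in controls and 99.4 ± 21.3 after MCAO. Sema6c had 52.1 ± 10.5 in controls and 48.5 ± 6.19 after MCAO. Sema7a, the lipid-anchored ligand of plexin-C1, was at 278 ± 23.6 in controls and 250.1 ± 35.1 after MCAO (-0.16, SE 0.16).

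Plexins are the signalling receptors of semaphorins and act as GTPase activating proteins inside the cell. Plxnb3 (chromosome X, 73756556 to 73772510), which is known from oligodendrocytes and binds Sema5a, was the only one of the 63 genes whose 3 MCAO values all lay above the controls. It was at 33.4, 39 and 42.3 scaled reads in controls 1, 2 and 3 and at 72.4, 59.1 and 83.9 in MCAO 1, 2 and 3. The lowest MCAO animal stood 16.8 scaled reads over the highest control. From 38.2 ± 4.49 scaled reads to 71.8 ± 12.4 the ratio of the means was 1.88, and the log2 change was 0.88 (SE 0.25, 95% interval 0.36 to 1.41), not called by limma (adjusted p = 0.0699). It was called under 4 of 19 alternatives, with edgeR (1.01, adjusted p = 0.0242), DESeq2 (0.98, 0.0394), library weights (1.06, 0.00475) and without control 2 and MCAO 2 (1.03, 0.0331). Without control 2 and MCAO 2 the shares of all genes called were 2.64% higher and 1.88% lower. Over all alternatives the log2 change ranged from 0.77 to 1.06 and the adjusted p from 0.00475 to 0.228.

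In the same libraries oligodendrocyte markers were higher. Of 9 markers 4 rose, 0 fell and all had positive log2 changes, with a median of 0.66, and their summed scaled reads were at 92.1 to 105% of the control mean in controls and at 136 to 175% after MCAO. Of 6 precursor markers 1 (Cspg4) rose, 4 had positive and 2 negative log2 changes, Pdgfra at -0.05 and Gpr17 at -0.03. The sum of that list stood at 82.4 to 109% of that mean without MCAO and at 126 to 163% with it. Its largest part was Olig1, at a mean of 421 scaled reads in controls and 671 after MCAO. Of 10 microglia markers 6 rose, with a sum between 84.1 and 116% in control animals and between 282 and 391% in MCAO animals. Their part in the higher Plxnb3 was not tested.

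The stretch before 1 annotated start of Plxnb3, which lies inside the annotated gene, holds the letters ACAAAG, in capitals, a core motif of SOX factors such as the oligodendrocyte regulator Sox10 (chrX:73756929-73756958, plus strand, 5′ to 3′). The motif was picked after the sequence had been read.
Plxnb3: aggccactattgACAAAGctgccagctgtg
Searched on both strands over the 250 bases before the start, ACAAAG was found in 6 of 70 RefSeq promoters (8.57%), against 12% of the promoters of tested genes and 16.5% of all promoters. GGGCGG, which does not overlap with it, was found in 49 of the 70 (70.0%), against 58.1% and 32.7%. The RefSeq table held promoters for 54 of the 63 genes. A match is a run of letters, not a bound site.

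Plxnb1, the receptor of Sema4d and the plexin with the most reads, was at 919, 883 and 899 scaled reads in controls 1, 2 and 3 and at 751, 740.2 and 846 in MCAO 1, 2 and 3, all 3 MCAO animals being below the controls by a small margin (-0.21, SE 0.14, limma adjusted p = 0.423). Plxnb2, which microglia also make, was at 216, 261 and 254 scaled reads in controls 1, 2 and 3 and at 265, 239 and 304 in MCAO 1, 2 and 3 with overlapping groups (0.14, SE 0.16).

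The 4 A-type plexins had negative log2 changes, and MCAO 2 was the lowest library for each. Plxna4 was at 314, 303 and 356 scaled reads in controls 1, 2 and 3 and at 288, 199 and 279.7 in MCAO 1, 2 and 3, without overlap (-0.36, SE 0.17, limma adjusted p = 0.265; -0.19 without MCAO 2). Plxna2 was at 316 ± 43.9 in controls and 242 ± 50.1 after MCAO (-0.39, SE 0.18; -0.22 without MCAO 2), Plxna1 at 303 ± 18.7 in controls and 258 ± 61.2 after MCAO (-0.26, SE 0.18) and Plxna3 at 65.6 ± 9.68 in controls and 62.5 ± 6.43 after MCAO (-0.07, SE 0.22). Without MCAO 2 their median was -0.13 in place of -0.31, and 3 of 4 stayed below 0. Plxnc1, the receptor of Sema7a, was at 177, 172 and 196 scaled reads in controls 1, 2 and 3 and at 172, 118 and 165 in MCAO 1, 2 and 3, and MCAO 1 lay 0.282 scaled reads under the lowest control. Plxnd1, the receptor of Sema3e, was at 225 ± 13.5 in controls and 212 ± 38.3 after MCAO (-0.10, SE 0.17).

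Netrin-1 attracts or repels axons according to the receptor, with Unc5 proteins on the repelling side. Ntn1 was at 75.7, 72.7 and 73.9 scaled reads in controls 1, 2 and 3 and at 55.3, 49.8 and 71.3 in MCAO 1, 2 and 3. The 3 controls were nearly equal, and MCAO 3 came close to them (-0.35, SE 0.22, limma adjusted p = 0.422). Ntn4, a basement membrane netrin, was at 68.3 ± 11.6 in controls and 57.9 ± 7.84 after MCAO. Ntn5 had the positive log2 change of 0.61 with an SE of 0.62 at a mean of 12.8 scaled reads. The netrin-G genes encode lipid-anchored synaptic proteins. Ntng1, with the most reads of the family, was at 183, 189.8 and 187 scaled reads in controls 1, 2 and 3 and at 201, 152 and 165 in MCAO 1, 2 and 3, with MCAO 1 above all controls (-0.12, SE 0.16), and Ntng2 at 81.5 ± 15.9 in controls and 71.8 ± 25.1 after MCAO.

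The 4 Unc5 genes had negative log2 changes. Unc5a, with the most reads, was at 306, 287 and 279 scaled reads in controls 1, 2 and 3 and at 272, 233 and 249.8 in MCAO 1, 2 and 3. Its groups did not overlap, with a difference of -0.21 (SE 0.15, limma adjusted p = 0.465). Unc5c was at 102, 163 and 174 scaled reads in controls 1, 2 and 3 and at 132, 68.4 and 101 in MCAO 1, 2 and 3. Control 1 was as low as MCAO 3, and the log2 change was -0.55 (SE 0.26, limma adjusted p = 0.259). It was -0.30 without MCAO 2 and -0.79 without control 1. Unc5b (-0.21, SE 0.22) and Unc5d (-0.16, SE 0.20) were at 96.7 ± 7.94 in controls and 84.8 ± 19.6 after MCAO and 133 ± 6.44 in controls and 121 ± 29.9 after MCAO.

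Long genes had lower values after MCAO across the whole table, and many guidance genes are long. The annotated span had a median of 105 kb in the 63 genes and of 25.1 kb in the 11938 tested genes with a span. Among all 1878 tested genes of at least 100 kb the median log2 change was -0.21 and 76.0% were negative. Among the 10060 shorter genes these were 0.03 and 46.8%. Of the guidance genes, 27 of 32 long and 24 of 31 shorter ones were negative, with medians of -0.33 and -0.17. Genes of 10 to 30 kb had a median of 0.03 over all tested genes, and the 20 guidance genes among them -0.14, with 15 negative. Over 300 kb, the medians were -0.32 for all 460 genes and -0.36 for the 15 guidance genes. With the span trend removed from each library, an alternative chosen after seeing the data, the median of the 63 genes was -0.12 and 48 were negative. Over all genes in that fit the median was -0.0037 and 50.4% were negative. None of the 63 was called, against 1.93% of all genes called as higher and 0.704% as lower. Robo2 and Robo1, spanning 1555 and 1020 kb, moved from -0.61 and -0.57 to -0.19 each. The shorter Sema4a, Efnb3 and Plxnb3, of 25.2, 7.06 and 16.0 kb, were at -0.53, -0.52 and 0.84.

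**Figure D4:**
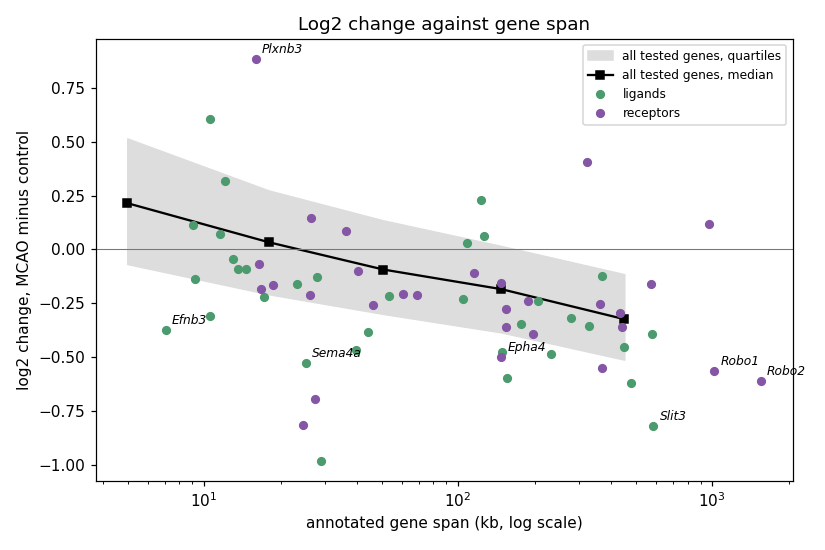
Log2 change after MCAO (y axis) against annotated gene span in kb (log x axis) for 34 ligands (green) and 29 receptors (purple), with the median and quartiles of all tested genes in 5 span classes (black line, grey band). The median of all genes falls from 0.22 in the class under 10 kb to -0.32 over 300 kb. The band spans only the quartiles, so many genes lie outside it. Among guidance genes these include Plxnb3 and Ntn5 above it and Sema4a, Epha4 and Efnb3 below it. Robo2 and Robo1 lie under the lower quartile of the class over 300 kb, -0.51.

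Markers of striatal projection neurons fell in the same libraries. All 7 fell, and their summed scaled reads were at 95.3 to 104% of the control mean in controls and at 37.4 to 46.1% after MCAO. Of 12 general neuron markers 0 were called, with sums of 94.1 to 109% and 85.5 to 102%. Astrocyte marker sums were at 70.3 to 117% in controls and 69.7 to 92.1% after MCAO, with 0 of 10 called. Mural cell and fibroblast marker sums, with 6 of 8 genes in the table, were at 81.5 to 128% and 56.4 to 92.7%. Endothelial ones were at 90.2 to 110% and 91.3 to 108%, but only 5 of 8 genes were in the table and 4 tested. Their sums were low, at 58.4 to 71.0 scaled reads in controls and 59.1 to 70.0 after MCAO. Of the 4 tested genes 2 had positive log2 changes (Cldn5 at 1.11, SE 0.55) and 2 negative ones (Flt1 at -0.37, SE 0.36). The part of these cell types in the lower Robo, Epha4 and ephrin-B values was not tested.

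**Figure D5:**
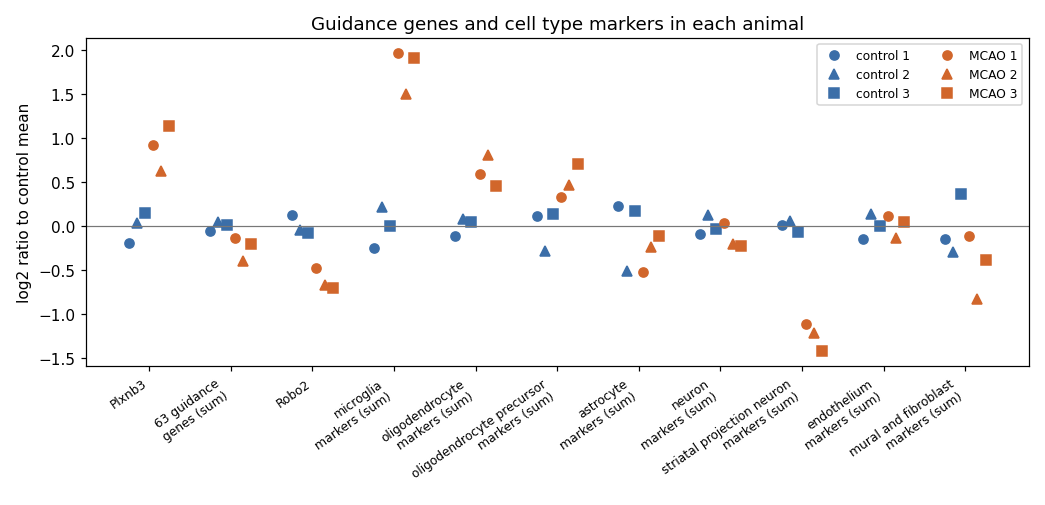
Log2 ratio of each animal's value to the control mean for Plxnb3, for the sum of the 63 guidance genes, for Robo2 and for summed marker lists of 8 cell types; blue marks controls, orange MCAO, and the symbol the replicate. Plxnb3 lies above 0 after MCAO, as do the oligodendrocyte, oligodendrocyte precursor and microglia marker sums. Robo2 lies below 0, as do the striatal projection neuron, astrocyte, and mural and fibroblast sums. In the astrocyte sums and in the mural and fibroblast sums, controls and MCAO animals overlap. Neuron and endothelium sums lie on both sides.

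Beyond the ligands and receptors, a list of 84 partners and effectors of guidance signalling was examined, of which 81 were tested. Of these, 1 rose and 2 fell, against 2.30% and 0.789% of all tested genes, and 55 had negative log2 changes. Rac2, the Rac GTPase of blood and myeloid cells, rose from 3.44 ± 1.47 scaled reads to 31.4 ± 7.01 (log2 change 2.91, SE 0.52, limma adjusted p = 0.00716). Controls were at 4.03, 1.77 and 4.53 scaled reads, and MCAO animals at 38.8, 24.9 and 30.6. The value in control 2 was 1 read. Microglia marker sums moved with it, as given above. Of 7 blood myeloid markers only 3 were measured and 2 tested, Lyz2 and Csf3r, and both rose. The sum of the 3 lay between 430 and 475% of the control mean in MCAO animals and between 74.5 and 113% in control animals. Most of that sum was Lyz2, at a mean of 17.1 scaled reads in controls and 94.1 after MCAO. The part of these cell types in the higher Rac2 was not tested. Its call was lost without MCAO 1 (adjusted p = 0.0576) or MCAO 3 (0.0656).

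Gsk3b, a kinase that acts on microtubule proteins downstream of semaphorins, fell from 680.0 ± 91.1 scaled reads to 433 ± 47.3 (-0.65, SE 0.15, limma adjusted p = 0.0366). Tiam1, an activator of Rac that ephrin-B and Eph signalling use, fell from 285 ± 40.6 scaled reads to 179 ± 15.8 (-0.67, SE 0.16, limma adjusted p = 0.0394). They span 157 and 358 kb, and both calls were lost with any 1 library left out (adjusted p 0.0507 to 0.113) and with the span trend removed (0.107 and 0.204). Srgap1 and Srgap3, which bind Robo receptors inside the cell, were named after their values were seen. Srgap1 was at 114 ± 17.9 in controls and 70.3 ± 10.2 after MCAO (-0.68, SE 0.21, limma adjusted p = 0.0909) and Srgap3 at 791 ± 60.1 in controls and 629 ± 52 after MCAO (-0.33, SE 0.14, limma adjusted p = 0.216), both without overlap of the groups. Groups lay apart in that direction in 12.5% of all tested genes. Srgap2 was at 115 ± 8.59 in controls and 121 ± 33.4 after MCAO (0.04, SE 0.22). Other partner genes went the other way, and 26 of the 81 tested had positive log2 changes. Vasp (1.22, SE 0.34), Cfl1 (0.54, SE 0.15) and Rtn4 (0.49, SE 0.14) were higher without overlap of the groups. Their limma adjusted p were 0.0705, 0.0704 and 0.0796. Groups lay apart in the higher direction in 12.4% of all tested genes.

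How much change these data could have missed differs between the genes. The 95% interval of the log2 change lay between -1 and 1 for 45 of the 63 genes. It excluded a doubling for 58 and a halving for 49. For Sema3f, Ephb4, Ntn5 and Efna1, with means of 25.4, 15.2, 12.8 and 12.1 scaled reads, the intervals spanned from -2.36 to 0.40, from -2.16 to 0.53, from -0.72 to 1.93 and from -1.36 to 1.09.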

How the data were processed

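The signal values analysed are the deposited scaled read counts per gene in 6 RiboTag libraries, 3 control and 3 MCAO. The submitters' processing notes name CASAVA 1.8, HISAT2 2.0.11, Partek 6.6, R 3.3.1, DESeq2 and the build mm10. Not given in the sources used here: how the 2 technical replicates of an animal were joined, how reads were counted, and whether by strand. Within a library 99.95% or more of the values above 1 are whole multiples of 1 step (within 0.1 read). Reads could so be recovered by dividing by that step. Values under 1 are listed as 1. The intervals of log2 changes are limma's, and so are the p-values unless edgeR or DESeq2 is named. They rest on the spread between animals, which also holds the noise of read sampling. In limma each gene's variance is drawn towards that of genes of like level.

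Tests used limma 3.58.1 in R 4.3.3 on log2(value + 1) with an intensity trend, two-sided, on the 12549 of 12968 genes whose mean reached 10, with Benjamini-Hochberg adjustment. Log2 changes are differences between group means of log2(value + 1), not ratios of the mean values, and the added 1 draws those of low genes towards 0. Alternatives were other pseudocounts (0.1 and 5), no filter or a mean of at least 50, other scalings, no trend, robust moderation, library weights, edgeR 4.0.16 and DESeq2 1.42.0 on recovered reads, and libraries left out. The limma and edgeR scripts were tested on simulated data.

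The guidance genes and the marker and partner lists were chosen with earlier results of these data known. Genes to be named were the called ones, those at an unadjusted p under 0.05 without overlap of the groups, the member of each family with the highest mean, any gene at the floor in a whole group, and the called partner genes. All other genes named were picked after their values were seen. Levels are not compared between genes, since no transcript lengths were used. Spans, positions and promoters are RefSeq's on GRCm38.p6.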

Additional observations from a re-analysis of the deposited data

How the results depend on the processing

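Against 0 guidance genes called as higher, 1 (Plxnb3) was called with library weights, edgeR, DESeq2 and without control 2 and MCAO 2. Against 0 called as lower, 1 (Robo2) was called with a pseudocount of 5, a mean of at least 50, robust moderation, edgeR and DESeq2, and 2 (Robo2 and Sema4a) with library weights. Leaving out 1 library called 0 in either direction. Among partner genes, 1 higher became 0 at a mean of at least 50, where Rac2 was not tested, 3 with library weights and DESeq2, 2 without control 2 and MCAO 2 and with the span trend removed, and 0 to 1 with 1 library left out. The 2 lower became 6 with library weights, 1 without control 2 and MCAO 2, and 0 with no intensity trend, with the span trend removed or with any 1 library left out. The 387 genes called in all became 157 with no intensity trend, 1002 with library weights, 148 to 306 with 1 library left out, and 567 without control 2 and MCAO 2. The cause was not tested.

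Among the guidance genes named by the rule, log2 changes that turned sign were those of Nrp2 (0.10 with library weights, 0.044 with edgeR, 0.0085 with DESeq2, -0.31 to 0.17 with 1 library left out, positive without MCAO 2, 0.27 without control 2 and MCAO 2, 0.050 with the span trend removed), Slit1 (0.0070 without control 2 and MCAO 2) and, with the span trend removed, Efna3 (-0.0086), Epha5 (0.013) and Ntng1 (0.15). Of 379 values of named genes under alternatives, 338 kept their direction and side of the threshold. Most of these belong to the 17 named guidance genes, uncalled in the main fit, and only stayed uncalled. Of the 3 called partner genes, Gsk3b and Tiam1 kept their call in 10 of 19 alternatives each and Rac2 in 16 of 18. No paired analysis was possible because the labels give no replicate numbers that groups share. The 882263 reads of MCAO 2, where 1 read is 3.11 scaled reads, limit all genes with low means.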
